A study of Rattus norvegicus with 16 samples.

Results

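A set of 9 enzymes and transporters that handle phosphate, pyrophosphate and citrate during mineralisation is described here in cells taken from titanium implants in rat tibiae. They were Phospho1, Smpd3, Alpl, Enpp1, Ankh, Slc20a1, Slc20a2, Phex and Slc13a5, 9 of the 17245 genes that a row of the array table names alone. They were chosen by known function, with earlier results of these arrays in view, including the differences between days. Values between days are therefore given for the 9 genes as a description, without a test. Values between surfaces were not used in the choice and are tested. Each of the 9 genes had 1 row on the array, and none was lost to a filter on low values.

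Pairs of commercially pure titanium implants were set in both tibiae of male Sprague Dawley rats, AT-I implants with nanoscale features in one leg and microrough AT-II implants without them in the other. Cells still attached to the implants after rinsing were lysed after 4 or 2 days, and their total RNA was hybridised to Affymetrix Rat Gene 1.1 ST arrays. Each surface was sampled at day 4 and at day 2, giving 4 groups of 4 arrays, 4 rats at each day, and both implants of a leg pooled in a sample. The samples used here include no rat without an implant and no bone before surgery, and the labels give the cell type only as tibial; the replicate numbers are not tied to rats in the labels. The labels give no age for the rats.

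The attached cells were a mixture. Of 10 osteoblast markers, 8 were measured, and their mean log2 level was 10.36 to 10.83 on AT-I and 10.24 to 10.91 on AT-II at day 4, and 7.17 to 8.66 on AT-I and 7.66 to 9.06 on AT-II at day 2. Neutrophil markers (7 of 7 measured) averaged 10.66 to 11.55 on AT-I and 10.89 to 11.25 on AT-II at day 4, and 11.09 to 12.00 on AT-I and 11.12 to 11.99 on AT-II at day 2. Replicates 2 and 3 of AT-II at day 2 differed by an SD of 0.11 (log2) over the 404 most variable of the 4036 rows with a mean above 9, against at least 0.29 for each of the other pairs among the 120. Of those 4036 rows, 0 were over 2-fold apart between these replicates, against at least 8 in each other pair; they were averaged and counted as 1 sample, so that 16 arrays gave 15 samples. The interquartile range of gene levels was 2.49 to 2.98 on AT-I at day 2 and 3.05 to 3.43 on AT-II at day 2, so those groups of arrays did not overlap in the spread of their values. In RNA of mixed cells, fewer cells of a type and less RNA per cell cannot be told apart.

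Bone mineral is calcium phosphate laid down on collagen, and its start is thought to lie inside matrix vesicles that bud from osteoblasts, where phosphate is released from phospholipids and from pyrophosphate. Pyrophosphate, made outside the cell from nucleotides or exported, blocks crystal growth, and alkaline phosphatase removes it. Osteopontin and related peptides also block mineral and are cleaved by the Phex peptidase, and citrate is a component of bone mineral itself.

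RefSeq promoters (rat build GRCr8) were at hand for 4 of the 9 genes, and the 250 bases before each start are shown, since Alpl, Phospho1 and Slc13a5 were all higher at day 4, while Ankh differed less between days. Capitals mark the letters GGGCGG, or CCGCCC on the other strand, and a run of 10 or more capitals holds matches that overlap or touch.
Alpl (chr5:155289786-155290035, minus strand): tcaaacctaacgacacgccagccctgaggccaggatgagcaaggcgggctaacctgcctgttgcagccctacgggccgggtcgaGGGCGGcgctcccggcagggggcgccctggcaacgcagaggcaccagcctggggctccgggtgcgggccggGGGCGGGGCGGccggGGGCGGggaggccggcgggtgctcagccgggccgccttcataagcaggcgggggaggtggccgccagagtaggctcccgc
Phospho1 (chr10:81258560-81258809, plus strand): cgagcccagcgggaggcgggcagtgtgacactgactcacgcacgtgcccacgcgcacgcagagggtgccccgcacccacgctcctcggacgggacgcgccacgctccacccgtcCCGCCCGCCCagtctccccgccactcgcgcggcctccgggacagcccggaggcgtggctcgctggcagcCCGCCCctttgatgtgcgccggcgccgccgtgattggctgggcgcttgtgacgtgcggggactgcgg
Slc13a5 (chr10:57388849-57389098, minus strand): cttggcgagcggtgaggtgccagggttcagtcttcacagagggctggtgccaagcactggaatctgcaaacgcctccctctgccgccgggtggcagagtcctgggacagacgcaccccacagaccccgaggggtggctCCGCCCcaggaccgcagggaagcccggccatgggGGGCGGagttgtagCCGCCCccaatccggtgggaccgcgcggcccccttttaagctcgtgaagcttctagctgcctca
Ankh (chr2:79883201-79883450, plus strand): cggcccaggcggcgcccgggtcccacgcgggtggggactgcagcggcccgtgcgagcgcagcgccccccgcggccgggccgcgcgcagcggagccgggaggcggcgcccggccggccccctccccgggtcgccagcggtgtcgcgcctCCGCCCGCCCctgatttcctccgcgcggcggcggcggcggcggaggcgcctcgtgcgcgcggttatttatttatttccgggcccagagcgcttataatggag

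The letters GGGCGG were found 4 times before Alpl, 3 times before Phospho1, 3 times before Slc13a5 and 2 times before Ankh, counted on both strands with overlaps. They were in 30.5% of the 33469 RefSeq promoters of the same length, and they were searched after the sequences had been seen. TGTGGT, the core letters bound by RUNX factors, was in 0 of the 4 windows on either strand and in 14.5% of all promoters, and TATAAA was in 0 of the 4 and in 12.9%. The GC content was 76% for Alpl, 76% for Phospho1, 67.6% for Slc13a5 and 79.2% for Ankh, against a median of 51.2% over all promoters. The 4 windows thus each had a GC content above that median. A relation of GC content to the differences between days was not tested. Phex, Smpd3, Enpp1, Slc20a1 and Slc20a2 are named without a sequence.

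Between days, 3 genes stood out by size. Phex was higher at day 4 by 4.24 on AT-I and 3.85 on AT-II (log2), Slc13a5 by 3.60 and 3.25, and Smpd3 by 3.50 and 3.05, on AT-I and AT-II in each case. Alpl and Phospho1 were higher by about 1 log2 unit, Enpp1 and Ankh by less, and the phosphate importers Slc20a1 and Slc20a2 lay within 0.32 of their day 2 means. Of the 9 genes, 5 passed the threshold of the fit across all genes (limma, Benjamini-Hochberg adjusted p below 0.05) on AT-I, where 11.5% of all genes passed in either direction, and 5 of 9 on AT-II, where 3.33% passed; since the choice used these differences, nothing is read from those counts. Between surfaces, 0 of the 9 passed at either day, as did 0% of all genes.

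**Figure D1:**
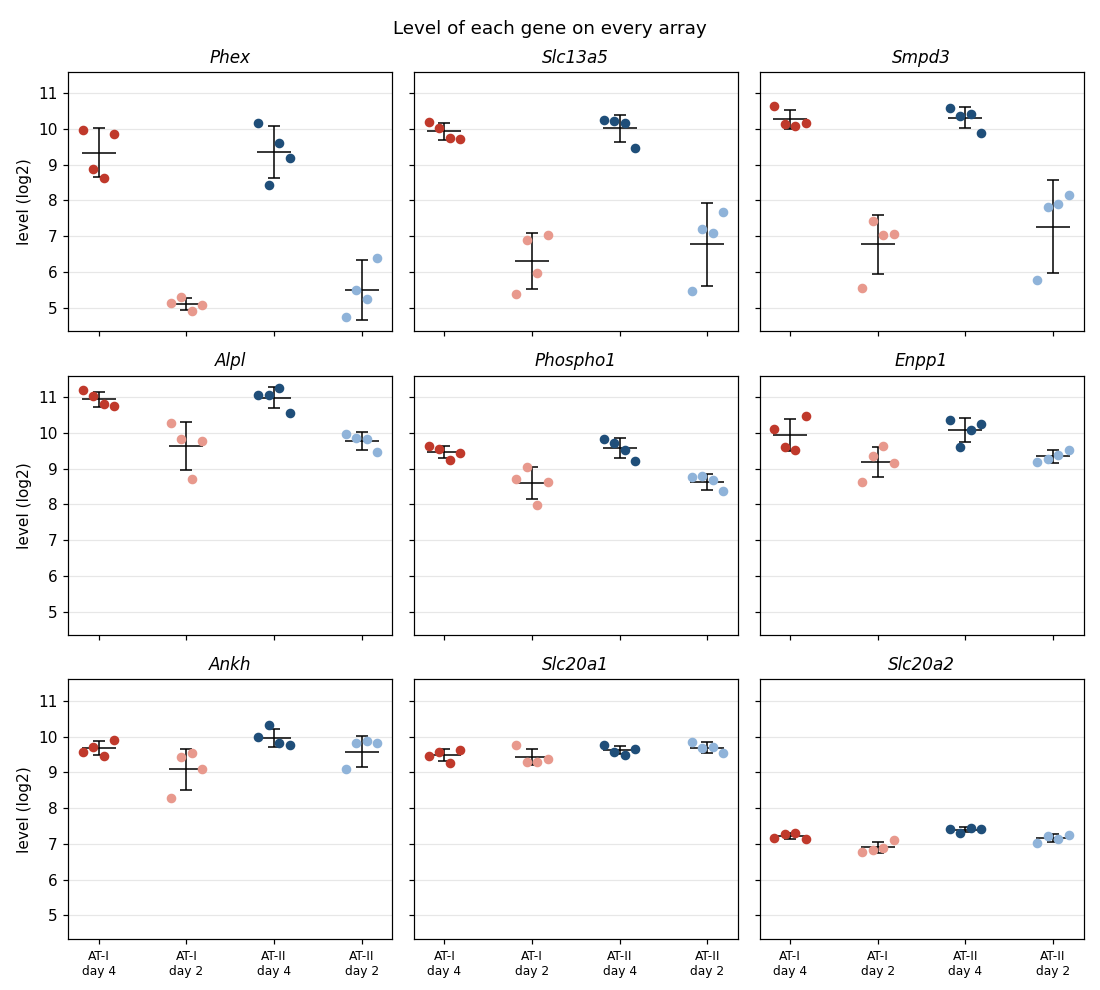
Log2 level of each gene on every array (points), by surface and day, with the group mean and SD (bars; n = 4 samples, and 3 for AT-II day 2, where an averaged pair counts once). Phex, Slc13a5 and Smpd3 lie at 8.43 or above on all day 4 arrays and at 8.16 or below on all day 2 arrays; heights are not comparable between panels, since probes differ in brightness.

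Phospho1 is the phosphatase that frees phosphate from phosphocholine and phosphoethanolamine inside matrix vesicles. On AT-I its log2 level was 9.62, 9.55, 9.23 and 9.44 at day 4, against 8.71, 9.05, 7.98 and 8.63 at day 2. AT-II arrays read 9.82, 9.72, 9.53 and 9.20 at day 4, against 8.77, 8.78, 8.68 and 8.36 at day 2. All day 4 arrays lay above all day 2 arrays of the same surface. The difference was 0.87 ± 0.20 on AT-I (log2, day 4 minus day 2, SE), a fold of 1.82, and 0.95 ± 0.22 on AT-II, a fold of 1.93.

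Smpd3, a neutral sphingomyelinase whose loss in mice leaves bone poorly mineralised, cleaves sphingomyelin to phosphocholine, the substrate of Phospho1. Its level on AT-I was 10.65, 10.15, 10.09 and 10.18 at day 4, against 5.54, 7.43, 7.04 and 7.05 at day 2. On AT-II it was 10.60, 10.37, 10.43 and 9.89 at day 4, against 5.79, 7.83, 7.89 and 8.16 at day 2. Replicate 1 was the lowest day 2 array on each surface, by a wide gap. Day 4 was higher by 3.50 ± 0.44 on AT-I, 11.3-fold, and by 3.05 ± 0.48 on AT-II, 8.31-fold; without AT-II day 2 replicate 1, the AT-II difference was 2.32. The replicates of day 4 were closer together (SD 0.260 on AT-I and 0.302 on AT-II) than those of day 2 (SD 0.836 on AT-I and 1.29 on AT-II).

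Alpl encodes tissue-nonspecific alkaline phosphatase, which splits pyrophosphate and so removes an inhibitor while releasing phosphate. The AT-I arrays read 11.20, 11.02, 10.81 and 10.74 at day 4, against 10.28, 9.82, 8.70 and 9.77 at day 2. The AT-II arrays read 11.06, 11.05, 11.24 and 10.56 at day 4, against 9.98, 9.86, 9.84 and 9.47 at day 2. The days did not overlap on either surface. Day 4 was higher by 1.30 ± 0.26 on AT-I, 2.46-fold, and by 1.21 ± 0.28 on AT-II, 2.32-fold.

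At day 2, Alpl and Smpd3 ordered the arrays differently. Replicate 1 was the highest array for Alpl and the lowest for Smpd3 on both surfaces. Neutrophil markers averaged 12.00, 11.80, 11.09 and 11.69 on AT-I and 11.99, 11.61, 11.67 and 11.12 on AT-II in replicates 1 to 4 at day 2. On AT-I the 4 arrays had the same order for Alpl and for these markers, and on AT-II replicate 1 was highest and replicate 4 lowest for both. That AT-II pattern was not particular to neutrophil markers, since erythroid and endothelium markers had it too. Endothelium markers, at 8.69, 7.99, 7.96 and 7.76 on AT-II at day 2, had the full order of Alpl there. Neutrophil markers departed from that order only between replicates 2 and 3, the averaged pair counted as 1 sample, so nothing is read from that departure. In humans, neutrophils also make this alkaline phosphatase. Osteoblast markers averaged 7.17, 8.66, 8.40 and 8.65 on AT-I and 7.66, 8.58, 8.56 and 9.06 on AT-II at day 2, with replicate 1 lowest on each surface, as for Smpd3 and for osteoclast, stroma, macrophage, T cell and adipocyte markers. Erythroid markers (5 of 7 measured), at 11.45, 11.70, 10.89 and 11.43 on AT-I, had the order of Phospho1 on AT-I at day 2, as did the markers of dividing cells (9.51, 9.61, 8.79 and 9.27) and of endothelium (7.93, 7.98, 7.41 and 7.70). On AT-II, where they read 11.76, 11.42, 11.48 and 11.13, they shared with Phospho1 that replicate 4 was lowest, which also held for dividing-cell, endothelium and neutrophil markers. The part of other cell types in the Alpl and Phospho1 levels was not tested. At day 4 the order was not shared on AT-II, where replicate 4 was highest for the neutrophil markers, at 11.25, and lowest for Alpl. On AT-I at day 4 the neutrophil markers averaged 11.36, 11.55, 10.98 and 10.66, the order of Alpl except between replicates 1 and 2. Endothelium markers, at 8.15, 7.97, 7.96 and 7.89, had the full order of Alpl there. Between days, 1 of the 7 neutrophil markers fell on AT-I and 0 on AT-II, and none rose. Those counts are near the shares of all genes that passed, 11.5% on AT-I and 3.33% on AT-II. The median difference of the neutrophil markers was -0.43 on AT-I and -0.47 on AT-II, and Alpl was higher at day 4.

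Enpp1, the ectoenzyme that makes pyrophosphate from ATP, read 10.12, 9.60, 9.52 and 10.46 on AT-I at day 4, against 8.62, 9.34, 9.62 and 9.16 at day 2. On AT-II it read 10.35, 9.60, 10.09 and 10.25 at day 4, against 9.18, 9.28, 9.39 and 9.52 at day 2. The days overlapped on AT-I, where day 2 replicate 3 lay above day 4 replicates 2 and 3, and did not overlap on AT-II. The difference was 0.74 ± 0.24 on AT-I and 0.73 ± 0.26 on AT-II, with a fold of 1.67 and 1.66.

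Ankh carries pyrophosphate, or the ATP it is made from, out of the cell. Its AT-I arrays read 9.58, 9.72, 9.45 and 9.91 at day 4, against 8.28, 9.44, 9.55 and 9.09 at day 2. Its AT-II arrays read 10.00, 10.32, 9.81 and 9.76 at day 4, against 9.08, 9.82, 9.88 and 9.81 at day 2. The days overlapped on both surfaces, and day 2 replicate 1 was the lowest array on each. Day 4 minus day 2 was 0.58 ± 0.25 on AT-I and 0.39 ± 0.27 on AT-II. Alpl, which removes pyrophosphate, differed more between days than either gene of its supply on both surfaces, but that contrast between genes was not tested.

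The type III sodium-phosphate importers differed least. Slc20a1 read 9.45, 9.58, 9.25 and 9.62 on AT-I at day 4, against 9.76, 9.28, 9.29 and 9.37 at day 2. On AT-II it read 9.77, 9.57, 9.49 and 9.65 at day 4, against 9.85, 9.67, 9.71 and 9.53 at day 2. The days overlapped on both surfaces, with a difference of 0.05 ± 0.13 on AT-I and -0.07 ± 0.14 on AT-II.

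Slc20a2, its close relative, read 7.17, 7.28, 7.29 and 7.13 on AT-I at day 4, against 6.76, 6.84, 6.89 and 7.10 at day 2. On AT-II the values were 7.42, 7.30, 7.45 and 7.41 at day 4, against 7.03, 7.23, 7.14 and 7.26 at day 2. The days stayed apart by a narrow gap on each surface, and the differences were small, 0.32 ± 0.10 on AT-I and 0.24 ± 0.11 on AT-II. Centring each array on its own median reduced them to 0.16 and 0.13.

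Phex is a zinc peptidase of osteoblasts and osteocytes whose loss causes X-linked hypophosphataemia in humans and mice. It read 9.97, 8.89, 8.63 and 9.87 on AT-I at day 4, against 5.13, 5.29, 4.90 and 5.07 at day 2. On AT-II it read 10.16, 8.43, 9.60 and 9.19 at day 4, against 4.74, 5.49, 5.24 and 6.39 at day 2. No array of one day came within 2 log2 units of the other day on the same surface. The difference was 4.24 ± 0.39 on AT-I, 18.9-fold, and 3.85 ± 0.42 on AT-II, 14.4-fold, which ranked 1 by size among the 17245 genes on each surface. The day 2 arrays of AT-I lay close together, from 4.90 to 5.29, while those of AT-II spread from 4.74 to 6.39. All of these lay below 6.565, the lowest median gene level of any array, so Phex was dim at day 2. Its folds and its day 2 spread rest on that dim level. At day 4, replicates 2 and 3 were the lower arrays on AT-I and replicate 2 the lowest on AT-II, and the same arrays had the lower osteoblast marker means of their groups (10.47 and 10.36 on AT-I, 10.24 on AT-II).

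Slc13a5 imports citrate into the cell, and in mice its loss leaves bone and enamel poorly mineralised. Its AT-I arrays read 10.19, 10.04, 9.74 and 9.73 at day 4, against 5.39, 6.90, 5.97 and 7.03 at day 2. Its AT-II arrays read 10.24, 10.21, 10.17 and 9.47 at day 4, against 5.47, 7.20, 7.10 and 7.69 at day 2. The days were far apart on both surfaces, and day 2 replicate 1 was again the lowest array on each. Day 4 was higher by 3.60 ± 0.41 on AT-I, 12.2-fold, and by 3.25 ± 0.45 on AT-II, 9.53-fold; without AT-II day 2 replicate 1, the AT-II difference was 2.60.

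By arrays, 6 of the 9 genes (Phospho1, Smpd3, Alpl, Slc20a2, Phex and Slc13a5) had all AT-I day 4 arrays above all AT-I day 2 arrays, as did 11.3% of all genes. The same genes and Enpp1, 7 of 9, had this on AT-II, as did 7.97% of all genes. The median difference of the 9 genes was 0.87 on AT-I and 0.95 on AT-II, beside -0.05 over all genes on each surface. These counts describe genes that were chosen with such differences known.

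**Figure D2:**
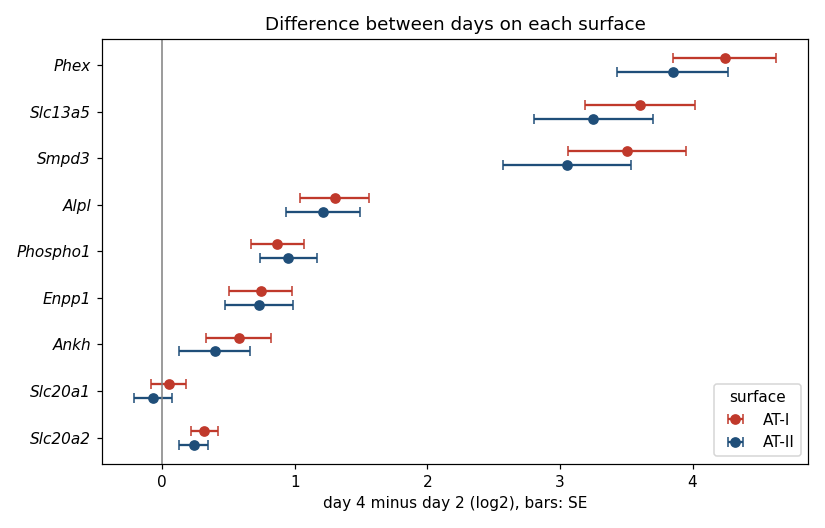
Difference between days (day 4 minus day 2, log2) for each gene on AT-I and AT-II, with bars for the SE of the fit across all genes. Phex, Slc13a5 and Smpd3 lie above 3, the 2 Slc20a genes lie near 0, and the order of the genes is much alike on both surfaces.

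Since osteoblast markers themselves were higher at day 4, each gene was also set against their mean in the same sample. Of the 8 measured markers, 8 rose on AT-I, with a median of 2.17, and 7 rose on AT-II, with a median of 1.92. Of all genes, 11.5% passed on AT-I and 3.33% on AT-II, in either direction. Marker means of osteoclasts, mesenchymal stroma, osteocytes and chondrocytes were also higher at day 4. Osteocyte markers averaged 7.35 at day 4 and 6.63 at day 2 on AT-I, and 7.42 and 6.45 on AT-II, with 1 of 5 rising on each. Chondrocyte markers averaged 6.34 and 6.08 on AT-I and 6.24 and 5.92 on AT-II, with 1 and 2 of the 6 measured rising. Osteoclast markers (5 of 7 measured) averaged 8.86 ± 0.414 at day 4 and 7.73 ± 0.569 at day 2 on AT-I. On AT-II they averaged 8.84 ± 0.214 and 7.77 ± 0.537 (SD, n = 4, and 3 for AT-II day 2). Of these 5, 2 passed on AT-I and 0 on AT-II. Mesenchymal stroma markers (5 of 6 measured) averaged 9.80 ± 0.0837 at day 4 and 8.92 ± 0.282 at day 2 on AT-I, and 9.82 ± 0.0689 and 9.30 ± 0.237 on AT-II, with 2 and 1 of the 5 rising. Relative to the marker mean, Phex was higher at day 4 by 1.89 on AT-I and 1.70 on AT-II, Slc13a5 by 1.25 and 1.10, and Smpd3 by 1.14 and 0.90. The other 6 genes were lower relative to the markers at day 4, from -0.94 for Alpl on AT-II to -2.31 for Slc20a1 on AT-I. With the median of the markers in place of their mean, each gene kept its sign, with Smpd3 at 0.07 and Slc13a5 at 0.27 on AT-II. The 9 genes therefore lay on both sides of the osteoblast marker mean in how far they differed between days. Singly, the markers differed by 1.27 (Runx2) to 3.81 (Bglap) on AT-I and by 1.34 (Runx2) to 3.44 (Bglap) on AT-II. Slc13a5 and Smpd3 lay within those ranges and Phex above them. Alpl lay within the range on AT-I and below it on AT-II. The part of a changed share of osteoblasts or of these other cells in the values was not tested.

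Profiles over the 15 samples were compared by the root mean square difference of log2 levels after each gene was centred on its own mean, a description with no test. The nearest genes to Slc13a5 were Smpd3 at 0.25, the bone morphogenetic protein Bmp3 at 0.39 and Dmp1, a matrix phosphoprotein of osteocytes, at 0.40, beside an SD of 1.89 for Slc13a5 itself. For Smpd3 they were Slc13a5 at 0.25, Bmp3 at 0.28 and Mamdc2 at 0.35. Phex lay nearest to osteomodulin (Omd, a bone matrix proteoglycan) at 0.41, to Dmp1 at 0.42 and to the receptor phosphatase Ptprz1 at 0.59, beside its own SD of 2.18. Alpl lay nearest to Phospho1 at 0.28, then to the proteoglycan Sdc3 at 0.34 and to Dtna at 0.36, beside an SD of 0.75. Slc13a5 and Smpd3 were each the nearest gene to the other, and neighbours were looked up for these 4 genes. Since the centring was over all samples and not within groups, these distances include the differences between days. Those were known when the genes were chosen, so the likeness is not separate evidence. Of 5 osteocyte markers, 1 passed between days on each surface, Dmp1 itself, beside 11.5% of all genes on AT-I and 3.33% on AT-II. The others stood at 0.14 on AT-I and 0.50 on AT-II (Sost), 0.07 and 0.25 (Mepe), 0.46 and 1.13 (Pdpn), and -0.53 and -0.57 (Fgf23).

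**Figure D3:**
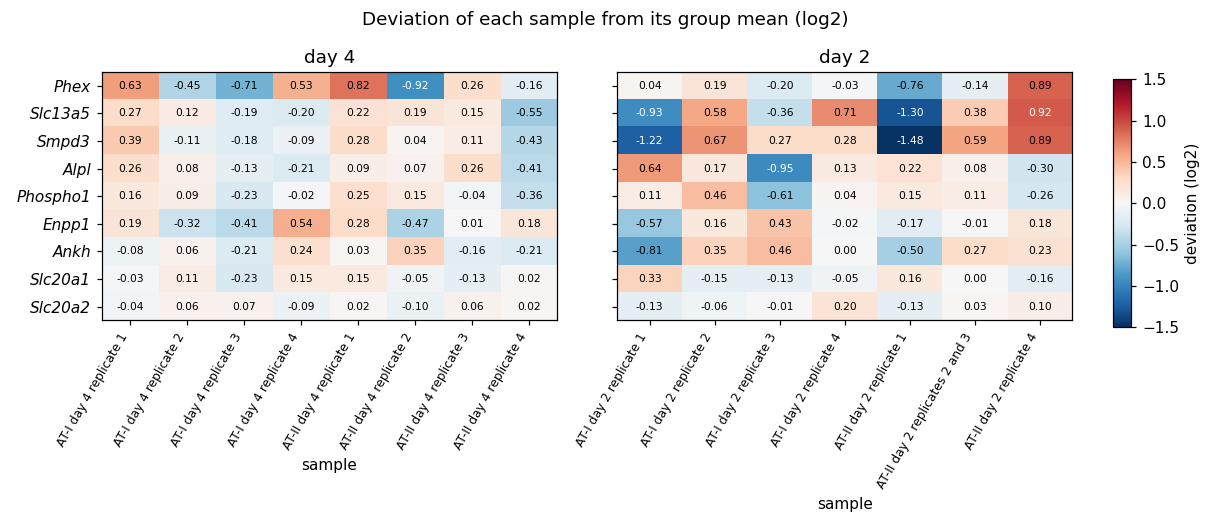
Log2 deviation of each sample from the mean of its group, for the 9 genes (rows) and the samples of day 4 (left) and day 2 (right), red above and blue below the mean. At day 2, replicate 1 of each surface is blue for Slc13a5, Smpd3, Enpp1 and Ankh and red for Alpl and Slc20a1.

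Within groups, the arrays moved the 9 genes in blocks. At day 2, replicate 1 was the lowest array of its group for Smpd3, Slc13a5, Enpp1, Ankh and Slc20a2 on both surfaces and the highest for Alpl and Slc20a1. The deviation of Smpd3 from its group mean was -1.22 on AT-I and -1.48 on AT-II in replicate 1, and that of Slc13a5 was -0.93 on AT-I and -1.30 on AT-II. At day 4, AT-I replicate 3 was the lowest array for 6 of the 9 genes, AT-II replicate 1 the highest for 6, and AT-II replicate 4 the lowest for 5. The spread between replicates was thus shared by several genes at a time, so their values are not independent of one another.

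Between surfaces at day 2, all 9 genes read lower on AT-I than on AT-II, though Alpl and Phospho1 turned when arrays were centred on their medians, as did these and Enpp1 under repeated quantile normalization, and none passed in the fit of unpaired samples. The differences (AT-I minus AT-II, log2, with 95% intervals) were -0.50 for Smpd3 (-1.52 to 0.52), -0.49 for Ankh (-1.06 to 0.07), -0.45 for Slc13a5 (-1.40 to 0.50) and -0.40 for Phex (-1.29 to 0.49). For Slc20a1 the difference was -0.26 (-0.57 to 0.04), for Enpp1 -0.16 (-0.70 to 0.38), for Alpl -0.12 (-0.72 to 0.47) and for Phospho1 -0.03 (-0.48 to 0.43). Slc20a2 had the smallest unadjusted p of the 9, 0.0352, with a difference of -0.26 ± 0.11 (SE), an interval of -0.50 to -0.02, and a limma adjusted p of 0.164. Adjusted p-values of the 9 genes ran from 0.164 to 0.938.

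The shared sign was common among genes of this brightness. Of all genes, 0% passed at day 2 by limma, with 4701 at an unadjusted p below 0.05 and a smallest adjusted p of 0.128. The difference was below 0 for 57.8% of all genes and for 89.9% of the 8623 genes at or above the median level, which include all 9 genes; the median over those brighter genes was -0.25, beside -0.26 over the 9. When the averaged pair was counted as separate arrays, 12.7% of all genes and 0 of the 9 passed. The interquartile ranges given above also differed between these groups of arrays, and their part in the shared sign was not tested.

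At day 4, the 9 differences between surfaces were again all below 0 (Phex, Alpl and Smpd3 turned under median centring, Phex under quantile normalization), and all but that of Phospho1 were smaller in size than at day 2. They ran from -0.31 for Ankh (95% interval -0.83 to 0.22) to -0.01 for Phex (-0.83 to 0.82). Those of the other genes were -0.18 for Slc20a2 (-0.40 to 0.04), -0.15 for Enpp1 (-0.65 to 0.36), -0.14 for Slc20a1 (-0.43 to 0.14), -0.11 for Phospho1 (-0.53 to 0.32), -0.10 for Slc13a5 (-0.98 to 0.78), -0.05 for Smpd3 (-1.0 to 0.89) and -0.03 for Alpl (-0.59 to 0.52). The limma adjusted p was 0.913 to 0.999, and 0% of all genes passed, with 687 at an unadjusted p below 0.05 and a smallest adjusted p of 0.913. Slc20a2 was the member whose arrays did not overlap, at 7.13 to 7.29 on AT-I and 7.30 to 7.45 on AT-II, as were 1.41% of all genes in that direction. The difference was below 0 for 58.1% of all genes and for 78.9% of those at or above the median level.

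The time courses of the surfaces were compared by the difference of their differences, (day 4 minus day 2 on AT-I) minus the same on AT-II. It was 0.45 for Smpd3 (95% interval -0.94 to 1.84), 0.39 for Phex (-0.82 to 1.61), 0.35 for Slc13a5 (-0.95 to 1.65), 0.18 for Ankh (-0.59 to 0.96) and 0.12 for Slc20a1 (-0.30 to 0.54). It was 0.09 for Alpl (-0.73 to 0.90), 0.08 for Slc20a2 (-0.24 to 0.41), 0.01 for Enpp1 (-0.73 to 0.75) and -0.08 for Phospho1 (-0.71 to 0.54). None of the 9 passed by limma, with adjusted p-values of 0.942 to 0.995, as 0% of all genes did; 707 genes had an unadjusted p below 0.05, and the smallest adjusted p was 0.924. The intervals of Smpd3, Phex and Slc13a5 each spanned over 2 log2 units.

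**Figure D4:**
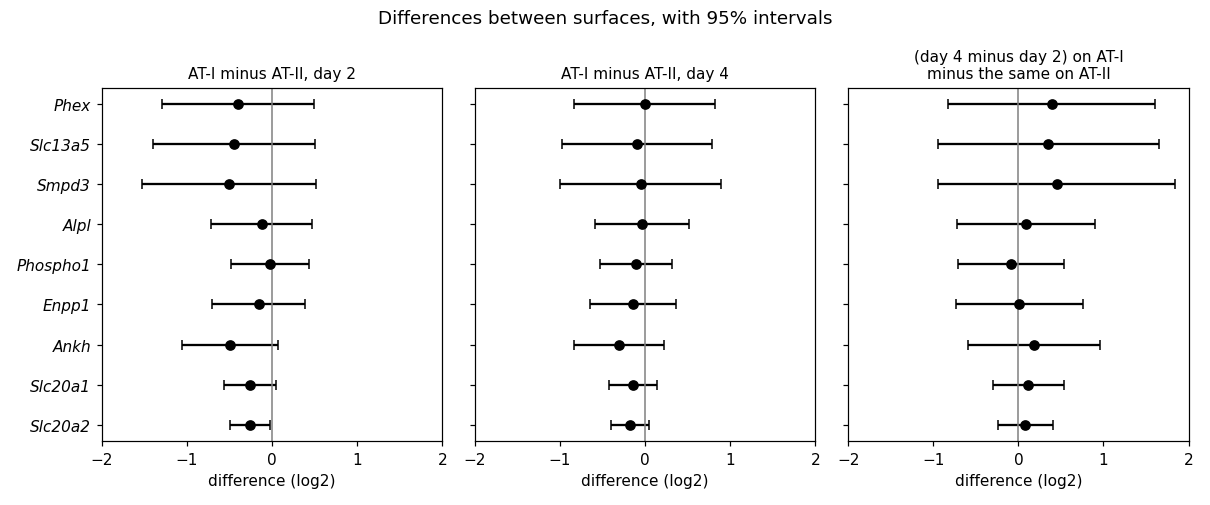
Differences between surfaces (points, log2) with 95% intervals for the 9 genes, at day 2, at day 4, and as the difference between the time courses. At day 2 the interval of Slc20a2 alone leaves out 0, before any adjustment over genes, and intervals are widest for Smpd3, Slc13a5 and Phex.

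Other genes of the same families gave a mixed picture between days. Of 19 measured relatives, 4 rose and 1 fell on AT-I, with a median of -0.18, and 3 rose on AT-II, with a median of -0.06, against a median over all genes of -0.05 on each. Mme (neprilysin, a peptidase of the same family as Phex) rose by 2.40 ± 0.24 on AT-I and 1.95 ± 0.26 on AT-II (limma adjusted p 2.7e-05 and 0.000422). Enpp6, a choline-specific phosphodiesterase, rose by 1.42 ± 0.26 on AT-I and 1.72 ± 0.29 on AT-II (limma adjusted p 0.00254 and 0.00245). Enpp2, the lysophosphatidic acid-making autotaxin, rose by 1.28 ± 0.20 and 0.87 ± 0.21 (limma adjusted p 0.000567 and 0.0325). The Enpp2 call on AT-II was lost in 7 of the 15 fits that left out a sample, namely each AT-II day 2 or day 4 sample in turn. It was also lost under median centring, under repeated quantile normalization and without both day 2 samples numbered 1. Smpd1, the acid sphingomyelinase, rose by 0.71 on AT-I (limma adjusted p 0.0204) and stood at 0.63 on AT-II (0.122). Its AT-I call was lost without any of AT-I day 2 replicates 1 and 3 and AT-I day 4 replicates 2 and 4. The interquartile range as covariate, leaving out the other surface, and leaving out both day 2 samples numbered 1 each ended it too.

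The kidney phosphate carrier Slc34a3 fell by 0.49 on AT-I (limma adjusted p 0.0254) and stood at 0.01 on AT-II. It was dim, with AT-I means of 4.75 at day 4 and 5.25 at day 2, where the median gene level of every array was 6.565 or above. This call was lost without replicate 3 of AT-I day 2 or replicates 2 or 4 of AT-I day 4. Repeated quantile normalization, array weights, the interquartile range as covariate, and leaving the other surface out of the fit each ended it too. The closest relatives of Slc13a5 did not pass, with Slc13a1 at -0.40, Slc13a2 at -0.61, Slc13a3 at -0.18 and Slc13a4 at -0.41 on AT-I, and -0.16, -0.17, 0.21 and -0.06 on AT-II. Slc34a1 (-0.40 and -0.03), Slc34a2 (-0.42 and -0.27), Smpd2 (-0.22 and -0.15), Smpd4 (0.09 and -0.04) and Phospho2 (0.19 and -0.06) did not pass on AT-I or AT-II. Nor did Alpi (-0.17 and -0.02), Enpp3 (-0.37 and -0.10), Enpp4 (-0.23 and -0.27), Enpp5 (0.17 and -0.31) and Ece1 (-0.07 and -0.28). So 5 of 19 relatives passed on AT-I, where 11.5% of all genes did, and 3 of 19 on AT-II, where 3.33% did.

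Among genes of hormonal phosphate control, 4 of 11 measured rose and 1 fell on AT-I (median 0.32), and 3 rose on AT-II (median 0.16), beside 11.5% of all genes passing on AT-I and 3.33% on AT-II. The vitamin D receptor Vdr rose by 1.58 ± 0.19 on AT-I and 1.49 ± 0.20 on AT-II. Fgfr1, a receptor for FGF23, rose by 1.78 ± 0.26 and 1.63 ± 0.28, and the parathyroid hormone receptor Pth1r by 2.66 ± 0.42 and 2.35 ± 0.45, on AT-I and AT-II. The largest limma adjusted p of these 3 genes on either surface was 0.00648. The other passing genes, the phosphate exporter Xpr1 (0.60) and the vitamin D hydroxylase Cyp24a1 (-0.46), passed on AT-I, with limma adjusted p-values of 0.0309 and 0.0488. They did so in 19 of 29 and 9 of 28 other settings, and their AT-II values were 0.29 and -0.08. Cyp24a1 was dim, with AT-I mean levels of 4.53 at day 4 and 4.99 at day 2.

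Of 13 measured genes for extracellular pyrophosphate and nucleotides, 2 rose on each surface, with medians of -0.08 on AT-I and -0.19 on AT-II, beside 11.5% of all genes passing on AT-I and 3.33% on AT-II. On AT-I, 2 of 13 is near that share. The channel Panx3, which releases ATP from osteoblasts and chondrocytes, rose by 4.18 ± 0.55 on AT-I and 3.83 ± 0.59 on AT-II (limma adjusted p 0.000162 and 0.00131). Entpd3, an ectoenzyme that removes phosphates from nucleotides, rose by 1.95 ± 0.16 on AT-I and 2.06 ± 0.18 on AT-II. Ada, the adenosine deaminase, stood at -0.46 on AT-I and -0.48 on AT-II without passing (adjusted p 0.0619 and 0.171).

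The genes that make and turn over matrix vesicle lipids, and the annexins, gave no call: 0 of 13 passed by limma on either surface, with 5 on AT-I and 0 on AT-II at an unadjusted p below 0.05, and medians of 0.25 on AT-I and 0.02 on AT-II. The genes among the 3 of smallest p on at least one surface were the choline kinase Chkb (0.40 on AT-I and 0.32 on AT-II), Pcyt1a, which makes CDP-choline (0.30 and 0.02), the annexin Anxa5 (0.50 and 0.40) and the phospholipase Pld1 (-0.04 and -0.21). Of all genes, 11.5% passed on AT-I and 3.33% on AT-II, so 0 of 13 is near those shares. Nothing is read from this count about Smpd3 and Phospho1.

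Of 10 measured genes of citrate metabolism outside Slc13a5, 1 rose and 1 fell on AT-I (median 0.11) and 0 passed on AT-II (median -0.10), beside 11.5% and 3.33% of all genes and medians of -0.05. The mitochondrial citrate exporter Slc25a1 rose by 0.52 ± 0.13 on AT-I (limma adjusted p 0.0163) and stood at 0.46 ± 0.14 on AT-II (0.0936). Its AT-I call was lost without AT-I day 2 replicate 1. Median centring, repeated quantile normalization and the interquartile range as covariate each ended it too. Slc16a3, a lactate exporter, fell by 1.12 ± 0.31 on AT-I (limma adjusted p 0.0269) and stood at -0.51 on AT-II. Its call was lost without replicate 1 of AT-I day 2 or replicates 1 or 4 of AT-I day 4. The interquartile range as covariate and leaving the other surface out of the fit also ended the Slc16a3 call. Idh1 (0.32 on AT-I and 0.05 on AT-II) and the zinc importer Slc39a1 (-0.06 and -0.31) did not pass.

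Mineral-binding proteins and inhibitors gave the most calls of these lists: 7 of 10 measured rose on AT-I (median 1.33) and 5 on AT-II (median 1.11), and none fell, beside 11.5% of all genes passing on AT-I and 3.33% on AT-II. The 7 include the calcification inhibitor Mgp, whose AT-I call held in 14 of 29 other settings. This list too was chosen with earlier results of these arrays known, so its place among the lists is a description. Dmp1 rose by 3.46 ± 0.36 on AT-I and 3.53 ± 0.39 on AT-II, and osteocalcin (Bglap) by 3.81 ± 0.60 and 3.44 ± 0.65. Ggcx, the carboxylase that acts on osteocalcin, rose by 1.21 ± 0.16 and 1.06 ± 0.17. The largest limma adjusted p of these 3 genes was 0.00635, for Bglap on AT-II, whose call was lost without AT-II day 2 replicate 1. Bglap and Ibsp are also among the osteoblast markers, and Spp1, which encodes osteopontin, was not analysed here.

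In the surface comparisons and in the difference of time courses, 0 genes of these 6 lists passed, as did 0% of all genes. By unadjusted p, the foremost of each list at day 2 were Slc13a1 (0.72), Xpr1 (-0.40), Nt5e (-0.40), Pcyt1a (-0.45), Acly (-0.30) and Ahsg (0.28), given as AT-I minus AT-II (log2), with limma adjusted p-values of 0.128 to 0.197. At day 4 they were Slc13a1 (0.48), Fgf23 (0.43), P2rx7 (-0.44), Sgms1 (-0.24), Slc25a1 (-0.17) and Ahsg (0.21), each with an adjusted p of 0.913. For the difference of time courses they were Slc34a3 (-0.50), Cyp24a1 (-0.38), Ppa2 (0.42), Pcyt1a (0.28), Idh3a (0.27) and Mepe (-0.18), with adjusted p-values of 0.924 to 0.931.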

How the data were processed

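The 16 samples were read on 1-colour Affymetrix Rat Gene 1.1 ST arrays. The deposited log2 values were made by the authors in the program Affymetrix Expression Console by RMA, as the submitters' processing notes state; the log2 scale is read from RMA and from their range, 1.82 to 14.0. The build is not given in the sources used. Of 29214 rows, 18644 named 1 gene in the platform annotation, 962 several and 9608 none; 18460 gene identifiers were in RefSeq's GRCr8 table, which changed 0 symbols. The brightest row stood for each of 17245 genes, with no filter on dim genes. The number of arrays limits the precision.

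AT-II day 2 replicates 2 and 3 were averaged, and limma 3.58.1 (R 4.3.3) fitted the 4 group means over 15 samples, after a test on simulated data. Tests are two-sided, adjusted by Benjamini-Hochberg over all genes, with a threshold of 0.05. The labels do not tie the legs of a rat together, so samples are treated as independent and p-values measure the spread between them. The 9 genes, the lists and the tests were chosen with earlier results of these data known. Named genes were the 9, every measured relative, the 3 of smallest p per other list in each comparison of days, the first in other comparisons, and the 3 nearest profiles of 4 members. The identity of the Slc20a1 and Slc20a2 proteins and the zinc site of Phex were not analysed here. Other settings changed normalization, row choice, the averaged pair, array weights, a replicate block, array spread as covariate, a filter on dim genes, and each sample left out in turn.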

Additional observations from a re-analysis of the deposited data

Results flagged for a closer look

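Of 69 sets of 4 arrays tested (members and marker means, by group), 6 held an array far from the others by Dixon's gap test, and chance alone flags about 1 in 20; AT-II day 2, with 3 samples after averaging, was not tested. Smpd3 was high in AT-I day 4 replicate 1, at 10.65 against 10.09 to 10.18 in the other AT-I day 4 arrays (log2). Slc13a5 was low in AT-II day 4 replicate 4, at 9.47 against 10.17 to 10.24. Among marker means, chondrocyte markers were high in AT-I day 4 replicate 3, at 6.55 against 6.24 to 6.28, and osteoclast markers were high in AT-I day 4 replicate 4, at 9.48 against 8.61 to 8.69. In AT-I day 2 replicate 1, macrophage markers were low, at 9.31 against 9.99 to 10.10, and T cell markers were low, at 6.25 against 6.76 to 6.83. That array was also the lowest of its group for Smpd3, Slc13a5, Enpp1, Ankh and Slc20a2, and without it the AT-I differences between days were 3.09 for Smpd3 and 3.29 for Slc13a5. The part of other cell types in these values was not tested.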

How the results depend on the processing

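Since the 9 genes were chosen with the differences between days known, how often they passed there is a description, from which nothing is read. Of 522 values of the 9 genes between days under other settings, 5 changed sign, all 5 of Slc20a1. With arrays centred on their medians, the median difference of all genes was -0.21 on AT-I and -0.16 on AT-II between days, against -0.05 on each as deposited, and 0.05 between surfaces at day 2, against -0.09.

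Between surfaces at day 2, the count of genes passing was 0 in the fit reported and 2193 with all 16 arrays counted separately, 1 after quantile normalization and 3713 with array weights; leaving out 1 sample gave 0 to 711, with 711 without AT-I day 2 replicate 2. With a replicate block within each day and 16 arrays, 3823 genes and 3 of the 9 passed, Ankh at -0.56 (limma adjusted p 0.0295), Smpd3 at -0.65 (0.0283) and Slc13a5 at -0.54 (0.0464). With that block as a random effect, 4702 genes and 1 of the 9 passed, Slc20a2 at -0.27 (limma adjusted p 0.0408); array weights gave 1, Ankh at -0.61 (limma adjusted p 0.0476). Same-numbered samples of the surfaces correlated over genes at 0.642, 0.505, -0.258 and 0.153 at day 2 and 0.131, -0.339, 0.468 and 0.201 at day 4, and not every sample correlated best with its own number, so the numbers were not taken to pair the samples. At day 4 and for the difference of time courses, 0 genes passed in every setting.

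Between days on AT-I, 1983 genes passed in the fit reported, 1314 with the interquartile range as a covariate, 1060 with the other surface left out of the fit, and 1158 to 2954 without 1 sample, lowest without AT-I day 4 replicate 4. On AT-II, 575 passed in the fit reported, 1228 with array weights, 334 without both day 2 samples numbered 1, 294 without the averaged pair, and 223 to 694 without 1 sample, lowest without AT-II day 2 replicate 1. Of the 9 genes, 5 passed on AT-II; 3 did under median centring, 3 without the averaged pair, and 3 to 5 without 1 sample, losing Alpl and Phospho1 without replicates 1 or 4 of AT-II day 2 or replicates 1, 2 or 3 of AT-II day 4.

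Small differences between surfaces changed sign in some settings, none past the threshold. At day 2, they were 0.014 for Alpl and 0.11 for Phospho1 under median centring, 0.060 for Alpl, 0.040 for Enpp1 and 0.22 for Phospho1 under quantile normalization, 0.094 for Enpp1, 0.24 for Phospho1 and 0.055 for Slc13a5 with the interquartile range as covariate, and 0.032 for Phospho1 without the averaged pair and 0.0097 without both day 2 samples numbered 1. At day 4, they were 0.078 for Phex, 0.051 for Alpl and 0.031 for Smpd3 under centring, 0.060 for Phex under quantile normalization, 0.13 for Phex, 0.044 for Alpl and 0.062 for Smpd3 with array weights, and 0.15 for Phex, 0.0006 for Phospho1, 0.14 for Smpd3 and 0.11 for Slc13a5 with the covariate. The difference of time courses turned for Enpp1 to -0.0054 with replicate 2 of the pair alone, -0.040 under centring, -0.13 under quantile normalization, -0.14 with the covariate and -0.093 without both day 2 samples numbered 1. It turned for Alpl to -0.074, Slc20a1 to -0.0067 and Slc20a2 to -0.027 under quantile normalization, and for Ankh to -0.0020 with the covariate. Leaving out 1 sample gave, at day 2, -0.78 to 0.044 for Phex, -0.34 to 0.19 for Alpl, -0.30 to 0.029 for Enpp1, -0.18 to 0.18 for Phospho1 and -1.10 to 0.013 for Slc13a5. At day 4 it gave -0.31 to 0.26 for Phex, -0.17 to 0.051 for Alpl and -0.20 to 0.038 for Smpd3. For the difference of time courses it gave -0.052 to 0.77 for Phex, -0.23 to 0.30 for Alpl, -0.18 to 0.16 for Enpp1, -0.086 to 0.43 for Ankh, -0.29 to 0.071 for Phospho1 and -0.11 to 1.00 for Slc13a5. The cause of these changes was not tested.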
